A study of Mus musculus with 24 samples.

Results

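The TRIM proteins are a large family of ubiquitin ligases, and 44 of their genes were followed in cultured mouse microglia, the macrophages of the brain. The members are the rows of the deposited normalized expression table whose symbol is Trim and a number, with or without a letter, which made 44 of its 12889 genes. RNA sequencing covered 24 libraries of primary microglia from p0 mice, 3 libraries in each of 8 groups. CD14-deficient cells (KO, B6.129S4-Cd14tm1Frm/J) and wild-type cells (WT, C57BL/6) each received mouse fibronectin (FN, 100 µg/ml), a matrix and plasma glycoprotein, or were left untreated or given Re-LPS at 0.1 or 10 ng/ml, a bacterial lipopolysaccharide without O-antigen. Every treatment lasted 3 h. CD14 is the surface protein that hands LPS to the receptor TLR4, and the design asks how its loss changes responses to the 2 LPS doses and to FN. The labels call the 3 libraries of a group independent cell preparations and do not say how many animals went into each. The KO line carries the deletion in every cell, so a role of CD14 before birth and one during the stimulus cannot be told apart. The KO and WT lines also differ in strain name (B6.129S4 and C57BL/6). An effect of strain background cannot be told apart from loss of CD14 for any gene.

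Most TRIM proteins join a RING domain, which recruits a ubiquitin-loaded E2 enzyme, to B-box and coiled-coil domains and a C-terminal part that binds the target. In the largest class that part is a SPRY domain. Many SPRY members are switched on by interferon and act on the sensors and adaptors of antiviral defence in macrophages, and some bind retroviral capsids directly. Others are chromatin proteins with a PHD finger and bromodomain, microtubule-binding proteins with a COS box, neuronal and muscle proteins with NHL repeats, or ligases anchored in the membrane of the endoplasmic reticulum. A classical route from TLR4 to interferon-inducible genes runs through interferon beta and its receptor to a promoter element called the ISRE.

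Promoter sequence from RefSeq (GRCm38.p6, the mm10 build that the submitters' processing notes name) was matched for 33 of the 44 genes, as windows of 250 bases before and 50 bases from each transcript start. The stretches shown belong to 5 of the 7 genes that rose with LPS 10 ng/ml in WT cells and hold the ISRE core. A further stretch is from Trim30b, which rose most and holds none in its window. Capitals mark the ISRE core GAAA-NN-GAAA or its reverse complement TTTC-NN-TTTC, where N is any base. The stretches come from chr7:102565453-102565552 (Trim21), chr7:104465164-104465263 (Trim30a), chr7:104507820-104507919 (Trim30d), chr7:104315466-104315565 (Trim12a) and chr7:104358617-104358716 (Trim30b), all on the minus strand, and from chr17:36836961-36837060 (Trim26) on the plus strand, and each is written 5′ to 3′ along its gene.
Trim21: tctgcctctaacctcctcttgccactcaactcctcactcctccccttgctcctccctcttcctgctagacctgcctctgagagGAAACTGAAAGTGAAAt
Trim30a: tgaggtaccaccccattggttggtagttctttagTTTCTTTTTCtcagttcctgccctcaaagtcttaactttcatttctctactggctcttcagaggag
Trim30d: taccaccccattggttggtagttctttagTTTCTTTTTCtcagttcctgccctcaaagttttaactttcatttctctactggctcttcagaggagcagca
Trim12a: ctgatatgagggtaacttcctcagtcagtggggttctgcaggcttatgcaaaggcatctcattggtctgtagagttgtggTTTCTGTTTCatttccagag
Trim26: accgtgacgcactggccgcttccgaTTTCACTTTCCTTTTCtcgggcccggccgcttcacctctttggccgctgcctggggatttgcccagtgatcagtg
Trim30b: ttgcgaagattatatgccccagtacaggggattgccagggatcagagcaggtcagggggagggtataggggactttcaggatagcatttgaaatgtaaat
Trim30b holds no capitals here and none in its whole window, and neither do the windows of Trim13, Trim25 and Trim56, which are not shown and rose by 2.49, 2.47 and 2.15 on the log2 scale. The Trim30b window (104358597 to 104358896) lies inside the annotated gene. On its minus strand that gene begins at 104369884, and the sequence there was not searched. Trim21 and Trim26 each hold 2 overlapping matches. Trim30a and Trim30d, which lie next to each other on chromosome 7, share 90.8% of aligned bases over their 300 base windows, against 48.0% for Trim30a and Trim30b.

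The ISRE core, searched on both strands, lay in the windows of 8 of the 33 genes, namely Trim2, Trim12a, Trim12c, Trim21, Trim26, Trim30a, Trim30d and Trim34a. Of all 27025 genes with such windows 3.99% held it in at least 1 window, and of all 32851 windows 3.44%. Read against the RNA, it lay in 7 of the 11 genes with a window that rose with LPS 10 ng/ml in WT cells, in 0 of the 12 that fell and in 1 of the 10 that were not called, which was Trim2. Among the 7, Trim30a and Trim30d share 90.8% of aligned window bases and Trim12a and Trim12c 72.6%. The 7 are therefore not all separate cases. With the 250 bases before the start alone the ISRE core lay in 4 of 33 genes, against 3.46% of all genes, since the matches of Trim2, Trim12a, Trim21 and Trim34a start after it. The palindrome TTCNNNGAA, called GAS, lay in Trim45 and Trim46 and in 9.55% of all genes. The NF-kB site GGG-NN-TTTCC lay in 0 of the 33 and in 1.89% of all genes. A match describes letters in a window and not binding.

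**Figure D1:**
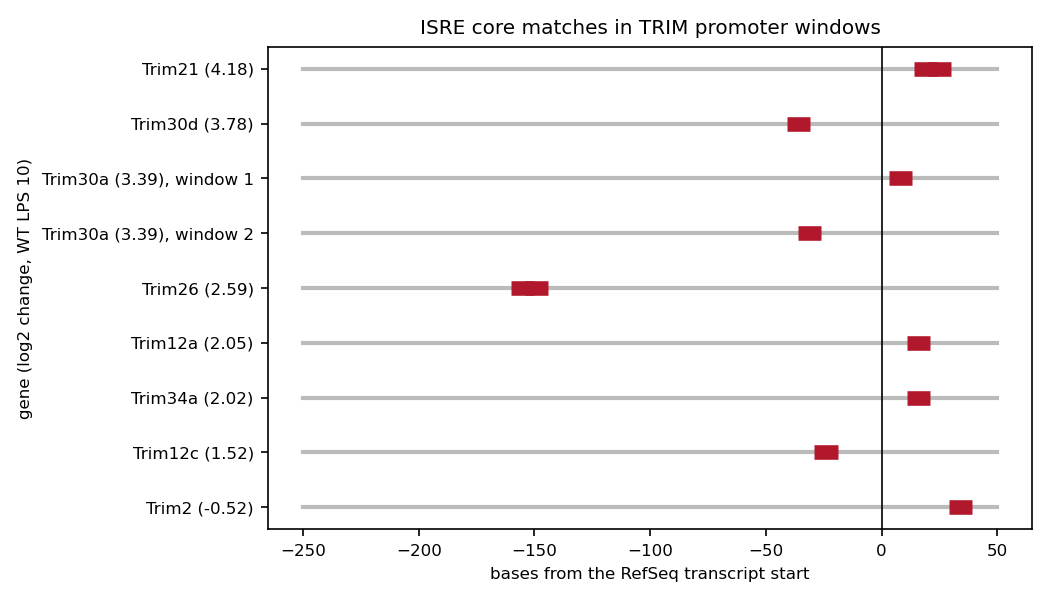
Position of each ISRE core match (red) along the 300 base promoter windows (grey) of the 8 TRIM genes that hold one, in bases from the transcript start, with the log2 fold change of WT cells at LPS 10 ng/ml against untreated beside each name. Trim30a has 2 windows with a match, and Trim2 (-0.52, not called) is the gene that did not rise.

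Libraries held 14939019 to 22143774 counts, and the 44 members took 0.155% to 0.340% of them. All 44 were among the 13294 genes that passed the filter on low counts and were tested. Levels (CPM) are counts divided by library sizes scaled by trimmed mean of M-values (TMM), listed in the order of replicates 1, 2 and 3. Each change is a log2 fold change, with its standard error after ±, from the quasi-likelihood test of edgeR, and "called", "rose" and "fell" mean an adjusted p under 0.05 over all tested genes. A number in brackets after a library or setting that ended a call is the adjusted p without or with it. Cd14 stood at 2.14 to 6.37 CPM in the 12 KO libraries and at 337.5 to 5329 CPM in the 12 WT libraries. The microglial markers summed to 5836 to 8865 CPM. None of the 10 was at 0 across a group, and 9 passed the filter on low counts. Other sums were 1.36 to 37.9 CPM for neuron and 1.16 to 31.4 CPM for vascular and fibroblast markers. The oligodendrocyte lineage sum was 120 to 183 CPM in KO and 137 to 456 CPM in WT libraries. The astrocyte sum was 11.5 to 26.1 CPM in KO and 15.1 to 44.6 CPM in WT libraries. The part of these sums in the KO and WT differences was not tested. The vascular and fibroblast sum at LPS 10 ng/ml was 19.7 to 31.4 CPM in the KO libraries and 10.8 to 30.7 CPM in the WT libraries, against 1.16 to 3.15 CPM in untreated KO and 1.66 to 3.21 CPM in untreated WT libraries, and its part in the results was not tested. In bulk RNA, fewer cells of a type and less RNA per cell cannot be told apart. Rn45s, a ribosomal RNA precursor, took 8.21% of counts in KO LPS 0.1 ng/ml replicate 2, 5.92% in WT LPS 10 ng/ml replicate 3 and 3.62% in WT LPS 0.1 ng/ml replicate 3, and at most 0.785% elsewhere.

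The TRIM genes with the highest levels in untreated microglia came from several classes of the family. Per kilobase of exon, Trim28, the corepressor KAP1 that silences retroelements, stood first in untreated WT cells at 41.4 ± 1.16 CPM per kb (SD, n = 3). Trim35 followed at 35.1 ± 5.48, Trim25 at 27.9 ± 6.64, Trim8 at 21.6 ± 5.14, Trim44 at 20.7 ± 1.09 and Trim30a at 20.2 ± 5.16 CPM per kb. The libraries of each gene overlapped with those of the next gene in this order. At the other end Trim30b had 0.0152 ± 0.00993 CPM per kb and a pooled 7 counts in the group, and Trim43c, a SPRY gene of the mouse Trim43 group, had 0.0585 ± 0.0172 CPM per kb and 7 counts.

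Loss of CD14 left the untreated levels of the TRIM genes without a detectable difference. Of the 44, 0 were called between untreated KO and untreated WT cells, against 0.00752% of all tested genes, and 0 reached an unadjusted p under 0.05. DESeq2, limma on the normalized values and a fit that blocked on the replicate number also called 0. Trim28 had 183, 182 and 169 CPM in untreated KO cells and 178, 168 and 170.3 CPM in untreated WT cells, a difference of 0.05 on the log2 scale with a 95% interval of -0.13 to 0.23. For Trim25, the ligase known for ubiquitinating the RNA sensor RIG-I, the interval was -0.28 to 0.76. For low genes it was wide, at -0.18 to 2.90 for Trim30b, which had 21 counts in untreated KO and 7 counts in untreated WT cells.

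All 3 stimuli changed TRIM genes in WT cells, and the higher LPS dose and FN changed most of them. In WT cells FN raised 16 members and lowered 16 (of all genes 23.7% rose and 26.5% fell), LPS 0.1 ng/ml raised 10 and lowered 1 (9.94% and 5.66%), and LPS 10 ng/ml raised 15 and lowered 16 (23.3% and 26.1%). In KO cells FN raised 2 and lowered 5 (9.23% and 7.17%), LPS 0.1 ng/ml raised 0 and lowered 0 (0.722% and 0.00752%), and LPS 10 ng/ml raised 12 and lowered 12 (21.2% and 21.6%). The shares of members called in either direction were thus 72.7% with FN and 70.5% with LPS 10 ng/ml in WT cells, beside 50.2% and 49.4% of all genes. They were 15.9% and 54.5% in KO cells, beside 16.4% and 42.9% of all genes. The median absolute log2 change of the 44 was 1.38 with FN and 1.32 with LPS 10 ng/ml in WT cells, beside 0.639 and 0.623 for all genes, and 0.263 and 0.631 in KO cells, beside 0.281 and 0.520. At LPS 0.1 ng/ml in KO cells 1 member reached an unadjusted p under 0.05, with 577 of all genes, and DESeq2 and limma called 0 members.

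These counts moved with the scaling and with the pairing of libraries. Scaled by library totals without TMM, the median of all genes shifted to -0.78 with FN and -0.80 with LPS 10 ng/ml in WT cells, and to -0.16 and -0.50 in KO cells, so each change here is relative to such a shift. Under totals, the members rising and falling were 12 and 21 with FN and 8 and 6 at LPS 0.1 ng/ml in WT cells, and 1 and 5 with FN and 10 and 16 at LPS 10 ng/ml in KO cells. With a replicate block nested in genotype, 24 members were called at LPS 0.1 ng/ml in WT cells (41.5% of all genes), and 16 with FN in KO cells (44% of all genes). Beside those given with each gene, the calls that the nested block added against untreated cells were, as log2 changes, for FN in KO cells Trim16 (-0.75), Trim32 (-0.28), Trim35 (0.46), Trim37 (-0.25), Trim45 (-0.79) and Trim66 (1.11). For LPS 10 ng/ml they were Trim27 (0.28) and Trim44 (-0.18) in KO cells and Trim6 (1.12), Trim23 (-0.37) and Trim44 (-0.33) in WT cells. For LPS 0.1 ng/ml in WT cells they were Trim6 (1.35), Trim13 (1.22), Trim16 (-1.13), Trim23 (-0.29), Trim28 (-0.23), Trim32 (-0.33), Trim35 (0.24), Trim37 (-0.31) and Trim44 (-0.16). The 7 calls with FN in KO cells became 3 without KO FN replicate 1, and 3 without KO untreated replicate 2.

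**Figure D2:**
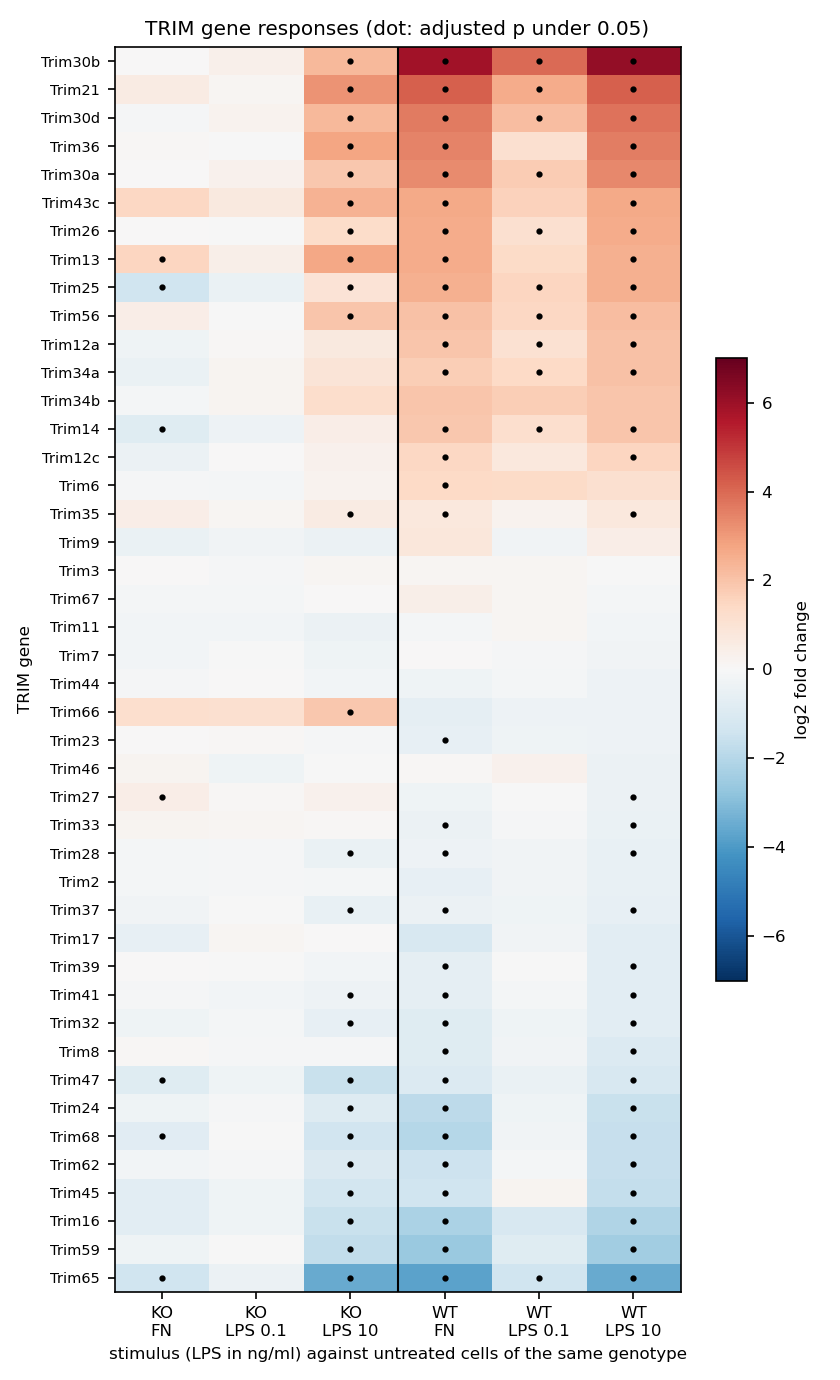
Log2 fold change of the 44 TRIM genes with each stimulus against untreated cells of the same genotype, KO columns left and WT columns right, sorted by WT cells at LPS 10 ng/ml (red higher, blue lower, TMM scaling); a dot marks an adjusted p under 0.05. The WT FN and WT LPS 10 ng/ml columns carry 32 and 31 dots, the KO FN column 7 and the KO LPS 0.1 ng/ml column 0. Trim35, red in the WT columns, turns negative with FN and LPS 10 ng/ml when scaled by library totals.

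Most interferon-inducible ligases rose in WT cells with every stimulus, and some of them rose in KO cells with the high LPS dose. Of 12 tested members on a list of known interferon-inducible TRIM genes, 11 rose in WT cells with FN (23.7% of all tested genes). In WT cells 10 rose with LPS 0.1 ng/ml (9.94%) and 11 with LPS 10 ng/ml (23.3%). In KO cells 0 rose and 2 fell with FN (9.23% and 7.17%), 0 were called with LPS 0.1 ng/ml (0.73%), and 7 rose with LPS 10 ng/ml (21.2%). Their median log2 change was 2.27, 1.48 and 2.31 in WT cells and -0.126, 0.107 and 1.25 in KO cells for FN, LPS 0.1 and LPS 10 ng/ml. The medians of all tested genes lay between -0.0191 and 0.00520 in these 6 comparisons. Trim34b was called with no stimulus in WT cells, and Trim12c was not called at 0.1 ng/ml (0.73 ± 0.32, adjusted p = 0.15), where the replicate block nested in genotype called it (0.71, adjusted p = 0.00051). The list was taken from general knowledge of the family with earlier results of these data known. It holds all 10 members that rose with LPS 0.1 ng/ml in WT cells.

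Trim21, a cytosolic antibody receptor and ligase (ENSEMBL gene at chromosome 7, 102557921 to 102565486, minus strand), carried the largest of these changes among the well-expressed members. It had 40.6, 36.98 and 25.5 CPM in KO cells with FN, against 429, 338 and 577 CPM in WT cells with FN. Along the LPS series, KO cells had 23.4, 23.4 and 22.5 CPM untreated, 26.1, 29.1 and 21.6 CPM at 0.1 ng/ml and 253, 231 and 117 CPM at 10 ng/ml. WT cells had 23.8, 21.96 and 29.3 CPM untreated, 175, 165 and 113 CPM at 0.1 ng/ml and 411, 361 and 585 CPM at 10 ng/ml. KO cells thus reached at 10 ng/ml a level that overlapped that of WT cells at 0.1 ng/ml. In WT cells Trim21 rose with FN (4.16 ± 0.30, adjusted p = 2.8e-09), LPS 0.1 ng/ml (2.59 ± 0.28, adjusted p = 2.9e-06) and LPS 10 ng/ml (4.18 ± 0.30, adjusted p = 2.8e-09), each time in 3 of 3 libraries. In KO cells the 10 ng/ml dose raised it (3.12 ± 0.29, adjusted p = 1e-07), while the value with FN was 0.57 ± 0.27, adjusted p = 0.18.

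The Trim30 group, which is expanded in the mouse and lies in 1 row on chromosome 7, moved in the same pattern. Trim30a, which limits NF-kB signalling by degrading TAB2 and TAB3 in mouse macrophages, had 79.9, 101 and 66.1 CPM in KO cells with FN and 823, 554 and 1097 CPM in WT cells with FN. It had 68.3, 97.1 and 73.2 CPM untreated, 85.01, 132 and 82.05 CPM at 0.1 and 325, 374 and 167 CPM at 10 ng/ml LPS in KO cells. In WT cells it had 63.4, 79.9 and 106 CPM untreated, 309, 275 and 255 CPM at 0.1 and 783, 687 and 1136 CPM at 10 ng/ml LPS. The 3 groups of the WT series did not overlap, and the KO libraries at 10 ng/ml lay above all untreated KO libraries, while those at 0.1 ng/ml and with FN overlapped them. The WT changes were 3.31 ± 0.33 with FN and 3.39 ± 0.33 with LPS 10 ng/ml, beside 0.05 ± 0.30 and 1.86 ± 0.31 in KO cells, of which the FN value in KO cells was not called.

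Trim30d had 26.1, 28.9 and 12.5 CPM in KO cells with FN and 354, 203 and 386 CPM in WT cells with FN. With LPS 10 ng/ml, KO cells had 162, 127 and 58.95 CPM and WT cells 349, 255 and 424 CPM, against 25.8, 30.02 and 16.5 CPM in untreated KO and 22.96, 20.97 and 30.98 CPM in untreated WT cells. At LPS 0.1 ng/ml KO cells had 29.7, 38.6 and 16.8 CPM and WT cells 140.5, 106 and 90.4 CPM. Replicate 3 was the lowest KO library in all 4 KO groups. Trim30b had the lowest counts of the 3 and the largest changes in WT cells. Its levels were 0.314, 0.366 and 0.2401 CPM in KO cells with FN and 5.23, 4.16 and 12.1 CPM in WT cells with FN. Untreated cells held 0.338, 0.403 and 0.166 CPM (KO) and 0.05196, 0.0947 and 0.197 CPM (WT), LPS 0.1 ng/ml gave 0.4702, 0.6396 and 0.0509 CPM (KO) and 2.52, 1.42 and 1.66 CPM (WT), and LPS 10 ng/ml 1.63, 2.12 and 0.745 CPM (KO) and 5.698, 5.84 and 14.8 CPM (WT). Its changes in WT cells were 5.87 ± 0.77, adjusted p = 3.8e-06 with FN and 6.17 ± 0.78, adjusted p = 2.4e-06 with LPS 10 ng/ml, against 7 untreated counts. Trim30a, Trim30b and Trim30d are close paralogs, and how the counting split reads between them is not given in the sources used here.

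Trim25 and Trim14 were the members called in opposite directions with FN in KO and WT cells. Trim25, the ligase of RIG-I, had 79.9, 74.9 and 58.8 CPM in KO cells with FN, below all untreated KO libraries, and 1033, 818 and 868 CPM in WT cells with FN, above all untreated WT libraries. Along the LPS series KO cells had 149, 192 and 228 CPM untreated, 119.6, 142 and 148 CPM at 0.1 ng/ml and 528, 372 and 216 CPM at 10 ng/ml. WT cells had 137, 140.4 and 205 CPM untreated, 521, 444 and 378 CPM at 0.1 ng/ml and 936, 835 and 891 CPM at 10 ng/ml. The 0.1 ng/ml libraries of KO cells all lay below their untreated libraries, a difference that was not called (-0.48 ± 0.25, adjusted p = 1). FN lowered Trim25 in KO cells (-1.41 ± 0.25, adjusted p = 0.00056) and raised it in WT cells (2.50 ± 0.26, adjusted p = 2e-07). LPS 10 ng/ml raised it in KO cells (0.97 ± 0.25, adjusted p = 0.0036), a call that ended when the 6 libraries were fitted alone (0.070) or scaled by library totals (0.10).

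Trim14, a RING-less SPRY protein that scaffolds signalling at MAVS, shared that pattern at lower levels. It had 12.2, 18.2 and 16.9 CPM in KO cells with FN and 69.6, 65.02 and 126 CPM in WT cells with FN, against 22.95, 34.98 and 27.4 CPM in untreated KO and 17.7, 23.3 and 28.96 CPM in untreated WT cells. At 10 ng/ml LPS the levels were 45.3, 38.03 and 33.7 CPM in KO and 81.7, 72.7 and 111 CPM in WT cells, and the KO change of 0.45 ± 0.24, adjusted p = 0.14 passed with the replicate block nested in genotype (0.47, adjusted p = 0.031). FN lowered it in KO cells (-0.85 ± 0.24, adjusted p = 0.021) and raised it in WT cells (1.90 ± 0.25, adjusted p = 3.7e-06). The KO call ended without KO FN replicate 1 (0.11) or KO untreated replicate 2 (0.12), and also with the compared groups alone (0.076). The 4338 exon bases of Trim14 share 31.3% with Nans, a gene on the opposite strand, so reads of both cannot be told apart if the strand was not used.

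Trim26, reported to degrade IRF3 in the nucleus, had 65.3, 66.6 and 67.8 CPM in KO cells with FN, overlapping untreated KO cells, and 395, 313 and 394 CPM in WT cells with FN. KO cells had 61.8, 66.4 and 66.9 CPM untreated, 64.4, 60.6 and 64.03 CPM at 0.1 and 205, 159 and 113 CPM at 10 ng/ml LPS. WT cells had 60.9, 57.3 and 65.4 CPM untreated, 153, 132 and 112 CPM at 0.1 and 363, 326 and 417 CPM at 10 ng/ml LPS. It rose at 10 ng/ml by 1.29 ± 0.16 in KO and 2.59 ± 0.17 in WT cells. Trim56, a ligase reported to act on cGAS and STING, had 98.1, 82.9 and 58.2 CPM in KO and 103, 85.1 and 102 CPM in WT cells at 10 ng/ml, which overlap. With FN it had 31.9, 27.2 and 24.3 CPM in KO cells and 96.02, 85.4 and 88.1 CPM in WT cells, which do not overlap. Its untreated levels were 21.3, 19.5 and 20.5 CPM (KO) and 22.5, 21.9 and 20.9 CPM (WT). The changes at 10 ng/ml were 1.97 ± 0.17 in KO and 2.15 ± 0.18 in WT cells, and those at 0.1 ng/ml -0.00 ± 0.17 in KO, not called, and 1.47 ± 0.17 in WT cells. The KO value with FN, 0.45 ± 0.17, adjusted p = 0.084, passed with the replicate block nested in genotype (0.44, adjusted p = 0.021).

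Trim12a, Trim12c and Trim34a, mouse relatives of the primate restriction factor TRIM5, rose in WT cells with FN and LPS 10 ng/ml and were not called in KO cells. With library totals the FN calls of Trim12c (adjusted p = 0.0503) and Trim34a (adjusted p = 0.0523) in WT cells ended. Trim12a had 17.9, 16.3 and 9.18 CPM in KO and 72.3, 43.7 and 73.8 CPM in WT cells with FN, and 36.4, 29 and 19.2 CPM in KO and 77.1, 53.05 and 76.9 CPM in WT cells at LPS 10 ng/ml. Its untreated levels were 20.8, 18.7 and 13.9 CPM in KO and 17.9, 11.9 and 20.3 CPM in WT cells. The WT changes at 10 ng/ml were 2.05 ± 0.31 for Trim12a, 1.52 ± 0.32 for Trim12c and 2.02 ± 0.45 for Trim34a, beside 0.66 ± 0.30, 0.31 ± 0.31 and 0.90 ± 0.43 in KO cells. The replicate block nested in genotype called Trim12a (0.64, adjusted p = 5.1e-05) and Trim34a (0.83, adjusted p = 0.0013) in KO cells at 10 ng/ml, and Trim12a (-0.32, adjusted p = 0.034) and Trim12c (-0.46, adjusted p = 0.014) as lower with FN in KO cells. At 0.1 ng/ml in WT cells, Trim12a (1.06 ± 0.30, adjusted p = 0.02) lost its call without WT LPS 0.1 ng/ml replicate 1 (0.12) or WT untreated replicate 2 (0.11), and also with library totals (0.053). Trim34a (1.38 ± 0.44, adjusted p = 0.039) lost it there without WT LPS 0.1 ng/ml replicate 1 (0.24), WT untreated replicate 1 (0.065), WT untreated replicate 2 (0.16) or WT untreated replicate 3 (0.069), and also with library totals (0.056), with no filter (0.056) or with the compared groups alone (0.077). An antisense transcript overlaps 23.5% of its exon bases.

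Several of these genes sit together. The 10 TRIM members read as a cluster lie between 102557921 and 104507849 on chromosome 7 (GRCm38), namely Trim21, Trim68, Trim6, Trim34a, Trim12a, Trim34b, Trim12c, Trim30b, Trim30a and Trim30d. The bounds of this set were a choice. A gap parts Trim21 and Trim68, which ends at 102687327, from Trim6, which starts at 104218793. Trim3, which starts at 105604463 and was called with no stimulus, was left out. Of the 10, 8 rose and 1 fell with FN in WT cells, 6 rose at LPS 0.1 ng/ml, and 7 rose and 1 fell at LPS 10 ng/ml. Of the other 34 members 8 rose and 15 fell with FN, 4 rose and 1 fell at LPS 0.1 ng/ml, and 8 rose and 15 fell at LPS 10 ng/ml in WT cells. In KO cells 0 of the 10 rose and 1 fell with FN and 4 rose and 1 fell at LPS 10 ng/ml, and of the other 34, 2 rose and 4 fell with FN and 8 rose and 11 fell at LPS 10 ng/ml. The shares of all genes in these comparisons are those given above, 23.7% up and 26.5% down with FN and 23.3% up and 26.1% down at LPS 10 ng/ml in WT cells. The member that fell is Trim68, a SPRY ligase first described as a cofactor of the androgen receptor in human cells. It had 3.35, 4.19 and 3.72 CPM in KO and 1.53, 1.68 and 1.68 CPM in WT cells with FN, and 2.54, 3.08 and 2.03 CPM in KO and 1.57, 2.17 and 2.75 CPM in WT cells at LPS 10 ng/ml. Untreated cells had 6.702, 7.33 and 5.49 CPM (KO) and 6.18, 5.25 and 8.24 CPM (WT), above every library of the FN and 10 ng/ml groups. Its falls were -2.003 ± 0.24 with FN and -1.60 ± 0.23 with LPS 10 ng/ml in WT cells, and -0.79 ± 0.22 and -1.35 ± 0.23 in KO cells. The FN call in KO cells ended without KO FN replicate 1 (0.085), KO FN replicate 3 (0.061), KO untreated replicate 1 (0.056) or KO untreated replicate 2 (0.086), and also with the compared groups alone (0.076). Trim6, whose unanchored ubiquitin chains activate the kinase IKKe, stood at 0.8404 to 1.63 CPM in KO and 2.3 to 3.703 CPM in WT cells with FN. Its rise with FN in WT cells (1.38 ± 0.53, adjusted p = 0.036) ended without WT FN replicate 2 (0.05), WT FN replicate 3 (0.12), WT untreated replicate 1 (0.094) or WT untreated replicate 2 (0.12), and also with library totals (0.37).

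**Figure D3:**
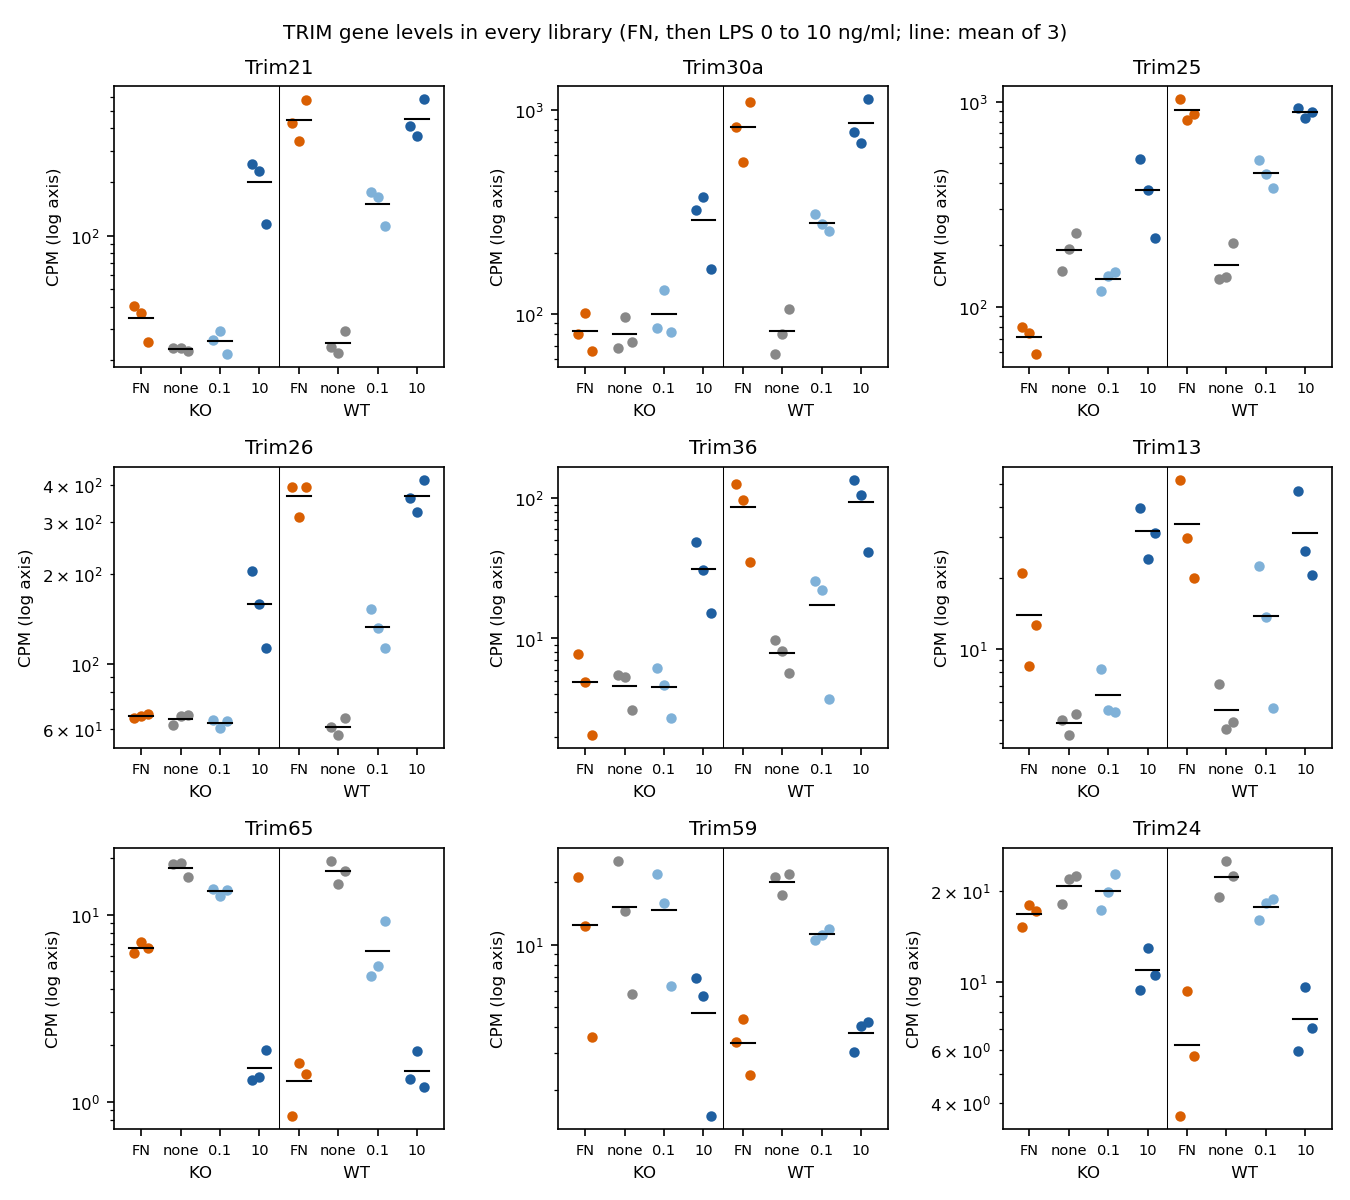
Level in every library (points, CPM on a log axis, a different range in each panel) of 9 TRIM genes, KO groups left and WT groups right, each as FN followed by LPS at 0 (none), 0.1 and 10 ng/ml, with the mean of 3 as a line. Trim25 lies at 58.8 to 79.9 CPM in KO cells with FN and at 818 to 1033 CPM in WT cells with FN, and Trim65 falls in the opposite order.

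Other members rose that are not on the interferon list. Trim36, a microtubule-binding ligase of the COS class on chromosome 18, had 7.797, 4.88 and 2.04 CPM in KO cells with FN and 127, 97.3 and 35.3 CPM in WT cells with FN. KO cells had 5.45, 5.28 and 3.11 CPM untreated, 6.197, 4.67 and 2.697 CPM at 0.1 and 48.4, 30.8 and 15.1 CPM at 10 ng/ml LPS. WT cells had 9.72, 8.14 and 5.67 CPM untreated, 25.9, 22 and 3.73 CPM at 0.1 and 135, 105 and 41.6 CPM at 10 ng/ml LPS. Replicate 3 was the lowest library in each of the 8 groups. Trim36 rose with FN in WT cells (3.46 ± 0.70, adjusted p = 0.0004) and with LPS 10 ng/ml in KO (2.76 ± 0.69, adjusted p = 0.003) and WT cells (3.58 ± 0.70, adjusted p = 0.00032). At 0.1 ng/ml the WT value of 1.13 ± 0.65, adjusted p = 0.31 passed with the replicate block nested in genotype (0.94, adjusted p = 0.0085).

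Trim13, a ligase anchored in the endoplasmic reticulum that acts in protein degradation there, was the member that rose with FN in KO cells by the largest amount. It had 20.98, 8.46 and 12.7 CPM in KO cells with FN, all above the 5.01, 4.33 and 5.32 CPM of untreated KO cells. WT cells had 52.2, 29.5 and 19.99 CPM with FN, against 7.12, 4.59 and 4.93 CPM untreated. With the higher LPS dose KO cells had 39.5, 24.2 and 31.1 CPM and WT cells 46.7, 26.1 and 20.6 CPM, which overlap. The rise with FN was 1.52 ± 0.45, adjusted p = 0.027 in KO cells and 2.61 ± 0.47, adjusted p = 0.00012 in WT cells, and the KO call ended without KO FN replicate 1 (0.15), KO untreated replicate 1 (0.072), KO untreated replicate 2 (0.099) or KO untreated replicate 3 (0.056). Its changes with LPS 10 ng/ml were 2.69 ± 0.47 in KO and 2.49 ± 0.47 in WT cells.

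Trim35, a SPRY ligase reported in human cells to regulate the glycolytic enzyme PKM2, showed small rises that depend on the scaling. It had 218, 205 and 261 CPM in KO and 286, 273 and 245 CPM in WT cells with FN, 266, 206 and 286 CPM in KO and 291, 274 and 237 CPM in WT cells with LPS 10 ng/ml, and 154, 141 and 206 CPM in untreated KO and 158, 189 and 139 CPM in untreated WT cells. In WT cells it was called with FN (0.72 ± 0.18, adjusted p = 0.002) and LPS 10 ng/ml (0.72 ± 0.18, adjusted p = 0.0021), and these values turn to -0.066 and -0.079 when libraries are scaled by their totals. In KO cells the rise at 10 ng/ml (0.60 ± 0.18, adjusted p = 0.0097) ended without KO untreated replicate 2 (0.057), and also with library totals (0.62) or with the compared groups alone (0.053). Trim43c stayed under 1.4 CPM in every library, with 42 counts in KO and 27 counts in WT cells at LPS 10 ng/ml, against 9 in untreated KO and 7 in untreated WT cells. It was called at that dose in KO (2.41 ± 0.75, adjusted p = 0.014) and WT cells (2.65 ± 0.77, adjusted p = 0.0077). The KO call ended without KO LPS 10 ng/ml replicate 2 (0.077) or KO untreated replicate 2 (0.067), and also with the compared groups alone (0.078). A transcript on the opposite strand overlaps 38.6% of its exon bases.

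The strongest fall was that of Trim65, a SPRY ligase that ubiquitinates the RNA sensor MDA5. It had 6.23, 7.16 and 6.603 CPM in KO cells with FN and 0.836, 1.604 and 1.41 CPM in WT cells with FN. KO cells had 18.6, 18.8 and 15.8 CPM untreated, 13.8, 12.6 and 13.5 CPM at 0.1 and 1.3, 1.36 and 1.897 CPM at 10 ng/ml LPS. WT cells had 19.4, 14.6 and 17.1 CPM untreated, 4.73, 5.34 and 9.21 CPM at 0.1 and 1.32, 1.87 and 1.19 CPM at 10 ng/ml LPS. At 10 ng/ml the KO and WT libraries covered nearly the same range, whereas at 0.1 ng/ml and with FN all KO libraries lay above all WT libraries. It fell at 10 ng/ml in KO (-3.54 ± 0.27, adjusted p = 9.8e-09) and WT cells (-3.53 ± 0.27, adjusted p = 5.1e-09), with FN in KO (-1.41 ± 0.24, adjusted p = 0.00046) and WT cells (-3.72 ± 0.27, adjusted p = 3e-09), and at 0.1 ng/ml in WT cells (-1.40 ± 0.24, adjusted p = 0.00045). The 0.1 ng/ml value in KO cells was -0.41 ± 0.24, adjusted p = 1. Trim65 shares 225 exon bases, 3.82% of its own, with its neighbour Trim47 on the same strand.

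Trim47, a SPRY ligase with 8.23% of its exon bases in that shared stretch, fell less. It had 27.3, 25.6 and 39.8 CPM in KO and 25.6, 27.3 and 24.98 CPM in WT cells with FN, and 18.8, 12.4 and 26.3 CPM in KO and 24.03, 26.6 and 18.3 CPM in WT cells at LPS 10 ng/ml. Untreated levels were 57.4, 59.4 and 52.3 CPM in KO and 51.5, 52.8 and 44.9 CPM in WT cells, all above the FN and 10 ng/ml libraries. The falls were -0.87 ± 0.22 in KO and -0.94 ± 0.22 in WT cells with FN, and -1.56 ± 0.22 in KO and -1.11 ± 0.22 in WT cells at 10 ng/ml, each called.

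Trim59, a membrane ligase reported to restrain TLR signalling, had 21.3, 12.3 and 3.602 CPM in KO cells with FN and 3.41, 4.37 and 2.36 CPM in WT cells with FN. Untreated levels were 25.4, 14.5 and 5.82 CPM in KO and 21.2, 17.3 and 21.95 CPM in WT cells. At 10 ng/ml LPS they were 6.89, 5.65 and 1.49 CPM in KO and 3.06, 4.04 and 4.22 CPM in WT cells. The untreated KO libraries spread over more than the difference with FN, and KO replicate 3 was the lowest library in all 4 KO groups. Trim59 fell in WT cells with FN (-2.58 ± 0.63, adjusted p = 0.002) and with LPS 10 ng/ml (-2.42 ± 0.62, adjusted p = 0.0032). In KO cells it fell with LPS 10 ng/ml (-1.70 ± 0.61, adjusted p = 0.03). That call ended without KO LPS 10 ng/ml replicate 3 (0.12), KO untreated replicate 1 (0.18) or KO untreated replicate 2 (0.051), and also with the compared groups alone (0.14) or without the libraries rich in Rn45s (0.05). At 0.1 ng/ml WT cells had 10.5, 11.1 and 11.98 CPM, all below the untreated libraries, and the value of -0.85 ± 0.59, adjusted p = 0.43 passed with the replicate block nested in genotype (-0.84, adjusted p = 0.00018).

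Further ligases fell in WT cells with FN and LPS 10 ng/ml and in KO cells with LPS 10 ng/ml. Trim16, which marks damaged lysosomes for autophagy, had 2.15, 3.42 and 2.101 CPM in KO and 0.906, 1.09 and 1.21 CPM in WT cells with FN, against 4.29, 5.65 and 2.99 CPM in untreated KO and 5.14, 3.83 and 5.82 CPM in untreated WT cells. Its changes at 10 ng/ml were -1.57 ± 0.50 in KO cells (2.08, 1.72 and 0.542 CPM) and -2.12 ± 0.52 in WT cells (0.413, 0.973 and 2.02 CPM). Trim62, known as a regulator of epithelial polarity and of CARD9, had 7.901, 15.3 and 11.2 CPM in KO and 2.44, 4.81 and 6.597 CPM in WT cells with FN, against 11.1, 16.9 and 10.9 CPM in untreated KO and 10.5, 12.4 and 14.4 CPM in untreated WT cells. With LPS 10 ng/ml it had 3.64, 10.1 and 5.22 CPM in KO and 2.81, 4.34 and 4.87 CPM in WT cells, changes of -1.03 ± 0.38 and -1.63 ± 0.39. Trim45, a ligase with a filamin repeat, had 0.975, 1.97 and 1.22 CPM in KO and 0.743, 0.374 and 1.102 CPM in WT cells at 10 ng/ml, against 3.09, 4.07 and 2.94 CPM in untreated KO and 1.66, 2.04 and 3.404 CPM in untreated WT cells. At that dose the KO call ended without KO LPS 10 ng/ml replicate 3 (0.073) or KO untreated replicate 2 (0.066), and also with the compared groups alone (0.089) for Trim16. That of Trim62 ended without KO LPS 10 ng/ml replicate 1 (0.16), KO LPS 10 ng/ml replicate 3 (0.12) or KO untreated replicate 2 (0.15), and also with the compared groups alone (0.14). For Trim45 it ended without KO LPS 10 ng/ml replicate 1 (0.14), KO LPS 10 ng/ml replicate 3 (0.11), KO untreated replicate 1 (0.059) or KO untreated replicate 2 (0.12), and also with no filter (0.05) or with the compared groups alone (0.069). In WT cells the Trim45 call at 10 ng/ml ended without WT untreated replicate 3 (0.051), and that with FN without WT FN replicate 1 (0.069), WT FN replicate 2 (0.096) or WT untreated replicate 3 (0.12).

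The 4 chromatin members with a PHD finger and bromodomain were Trim24, Trim28, Trim33 and Trim66. In WT cells 3 of them fell and 0 rose with FN (26.5% and 23.7% of all genes). The same numbers held at LPS 10 ng/ml (26.1% and 23.3%). In KO cells 0 were called with FN (16.4%), and at LPS 10 ng/ml 2 fell and 1 rose (21.6% and 21.2%). Trim24, a coregulator of nuclear receptors, had 15.2, 17.9 and 17.2 CPM in KO and 3.62, 9.33 and 5.72 CPM in WT cells with FN, and 9.43, 12.96 and 10.6 CPM in KO and 5.95, 9.65 and 7.07 CPM in WT cells at 10 ng/ml. Its untreated levels were 18.03, 21.8 and 22.4 CPM in KO and 19.1, 25.1 and 22.3 CPM in WT cells. It changed by -1.83 ± 0.25 with FN and -1.55 ± 0.25 with LPS 10 ng/ml in WT cells, and by -0.91 ± 0.24 with LPS 10 ng/ml in KO cells, and the FN value in KO cells was -0.31 ± 0.24, adjusted p = 0.49.

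Trim28 had 158, 163 and 168 CPM in KO and 137, 126 and 134 CPM in WT cells with FN, and 119, 119.6 and 144 CPM in KO and 121, 121 and 123 CPM in WT cells at 10 ng/ml. All stimulated libraries of these 4 groups lay below the untreated libraries of their genotype. The falls at 10 ng/ml were -0.48 ± 0.09, adjusted p = 0.00016 in KO and -0.50 ± 0.09, adjusted p = 7.6e-05 in WT cells, where library totals moved the median of all genes by -0.50 in KO and -0.80 in WT cells. Trim33, a partner of SMAD4 in TGF-beta signalling, changed by -0.40 ± 0.12 with FN and -0.44 ± 0.12 with LPS 10 ng/ml in WT cells, and the FN call ended without WT FN replicate 3 (0.074) and that of LPS 10 ng/ml without the libraries rich in Rn45s (0.052). Trim66, a testis-enriched and RING-less relative, was the exception. It had 1.04, 1.51 and 1.22 CPM in KO and 0.3303, 0.299 and 0.826 CPM in WT cells at 10 ng/ml, against 0.289, 0.477 and 0.222 CPM in untreated KO and 0.468, 0.852 and 0.543 CPM in untreated WT cells, from 64, 17, 23 and 38 counts. It rose at 10 ng/ml in KO cells (1.90 ± 0.44, adjusted p = 0.0016) and was not called in WT cells (-0.36 ± 0.44, adjusted p = 0.56).

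Smaller falls in WT cells covered Trim8, Trim27, Trim32, Trim37, Trim39 and Trim41. Trim27, a SPRY ligase of the endosomal WASH system, had 62.6, 54.9 and 66.99 CPM in KO and 40.3, 36.2 and 32.4 CPM in WT cells with FN, against 47.6, 42.2 and 45.9 CPM in untreated KO and 47.6, 47.1 and 41.7 CPM in untreated WT cells. At 10 ng/ml it had 52.1, 45.7 and 69.5 CPM in KO and 38.2, 33.5 and 30.9 CPM in WT cells. The KO libraries with FN all lay above, and the WT libraries with FN below, the untreated libraries of their genotype. FN raised it in KO cells (0.44 ± 0.13, adjusted p = 0.029). This call ended without KO FN replicate 1 (0.079), KO FN replicate 3 (0.12), KO untreated replicate 2 (0.11) or KO untreated replicate 3 (0.057), and also with library totals (0.12), with no filter (0.053) or with the compared groups alone (0.076). In WT cells the value with FN was -0.33 ± 0.13, adjusted p = 0.05, which passed with the replicate block nested in genotype (-0.33, adjusted p = 0.00095), and that at 10 ng/ml was -0.41 ± 0.13, adjusted p = 0.016, a call that ended without WT LPS 10 ng/ml replicate 3 (0.072) or WT untreated replicate 1 (0.052), and also without the libraries rich in Rn45s (0.081). Trim8, which ubiquitinates TAK1, fell with FN (-0.86 ± 0.30, adjusted p = 0.022) and at 10 ng/ml (-0.95 ± 0.30, adjusted p = 0.012) in WT cells. These calls ended without WT FN replicate 3 (0.12), WT untreated replicate 1 (0.07) or WT untreated replicate 2 (0.079) for FN. For LPS 10 ng/ml the call ended without WT LPS 10 ng/ml replicate 3 (0.071), and also without the libraries rich in Rn45s (0.072).

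Trim32, an NHL ligase mutated in a muscular dystrophy, had 19.9, 27.4 and 20.05 CPM in KO and 13.9, 15.4 and 14.1 CPM in WT cells with FN, against 25.7, 27.6 and 28.1 CPM in untreated KO and 26.1, 25.6 and 26.5 CPM in untreated WT cells. It fell with FN in WT cells (-0.85 ± 0.11, adjusted p = 3.3e-06) and at 10 ng/ml in KO (-0.57 ± 0.11, adjusted p = 0.00033) and WT cells (-0.77 ± 0.11, adjusted p = 1.1e-05). Trim41, a ligase for protein kinase C, changed by -0.61 ± 0.11 with FN and -0.76 ± 0.11 at 10 ng/ml in WT cells and by -0.34 ± 0.11 at 10 ng/ml in KO cells, where the call ended without KO LPS 10 ng/ml replicate 1 (0.07) or KO untreated replicate 2 (0.071), and also with the compared groups alone (0.11). Trim37, a ligase of peroxisome and centrosome biology, changed by -0.54 ± 0.15 in KO and -0.57 ± 0.15 in WT cells at 10 ng/ml and by -0.43 ± 0.15 with FN in WT cells, where the call ended without WT FN replicate 1 (0.11), WT FN replicate 3 (0.10) or WT untreated replicate 2 (0.098), and also with RLE scaling (0.054) or with the compared groups alone (0.076). Trim39, an SPRY ligase linked to apoptosis and the cell cycle, had 15.3, 19.5 and 18.8 CPM in KO and 9.13, 8.09 and 12.99 CPM in WT cells with FN, against 14.3, 18.3 and 19.5 CPM in untreated KO and 15.7, 13.3 and 17.1 CPM in untreated WT cells. It fell in WT cells with FN (-0.61 ± 0.22, adjusted p = 0.027) and at 10 ng/ml (-0.75 ± 0.22, adjusted p = 0.008), and the FN call ended without WT FN replicate 1 (0.094), WT FN replicate 2 (0.12), WT untreated replicate 1 (0.062) or WT untreated replicate 3 (0.097). The LPS call ended without WT LPS 10 ng/ml replicate 1 (0.055). Trim23, an ARF-domain ligase, fell with FN in WT cells (-0.56 ± 0.16, adjusted p = 0.0078).

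Members differed between the LPS doses in both genotypes. Between 10 and 0.1 ng/ml, 11 members were higher and 12 lower at the higher dose in WT cells (14.8% and 17.4% of all genes), and 10 higher and 8 lower in KO cells (18.3% and 18.5%). Under library totals the split was 6 and 20 in WT cells (840 and 6117 of all 13294 tested genes). In KO cells it was 8 and 16 (1278 and 4939). Under RLE scaling it was 13 and 9 in WT cells (2232 and 2027). In WT cells 8 members were called without the 3 libraries rich in Rn45s, and 14 without WT LPS 0.1 ng/ml replicate 3. With the replicate block nested in genotype 30 members were called in KO cells (62.8% of all genes). Trim36 was higher at 10 than at 0.1 ng/ml by 2.79 ± 0.69 in KO and 2.45 ± 0.67 in WT cells, Trim56 by 1.97 ± 0.17 in KO and 0.68 ± 0.17 in WT cells, and Trim65 differed by -3.13 ± 0.27 in KO and -2.13 ± 0.26 in WT cells.

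Set directly against each other, stimulated KO and WT cells differed most with FN. With FN 13 members were higher and 13 lower in KO than in WT cells (21.0% and 17.6% of all genes), at LPS 0.1 ng/ml 1 was higher and 8 lower (2.97% and 6.33%, together 9.3%), and at LPS 10 ng/ml 5 were higher and 9 lower (8.05% and 7.85%). Under library totals the split with FN was 22 and 12 (6838 and 1117 of all 13294 tested genes). It was 2 and 7 at 0.1 ng/ml (679 and 624) and 11 and 9 at 10 ng/ml (3448 and 649). Of the 12 interferon-inducible members, 11 were lower in KO cells with FN, 8 at 0.1 and 9 at 10 ng/ml, and 0 were higher. That list was drawn up with earlier results of these data known, so these counts are no independent test of it. The largest differences with FN were Trim30b (-4.50 ± 0.71), Trim36 (-4.14 ± 0.73), Trim30d (-3.80 ± 0.43), Trim21 (-3.70 ± 0.30) and Trim25 (-3.67 ± 0.27) on the lower side. On the higher side they were Trim65 (2.37 ± 0.26), Trim59 (1.88 ± 0.61), Trim24 (1.43 ± 0.25) and Trim62 (1.31 ± 0.39). At 0.1 ng/ml Trim65 was the member that was higher in KO cells (1.05 ± 0.24, adjusted p = 0.0089), a call that ended without WT LPS 0.1 ng/ml replicate 1 (0.072) or WT LPS 0.1 ng/ml replicate 2 (0.073), and also with the compared groups alone (0.14). A block on the replicate number over all libraries added calls for Trim12a (-0.90), Trim13 (-1.03), Trim34a (-1.03) and Trim36 (-1.74) at 0.1 ng/ml. It added Trim8 (0.86), Trim24 (0.55), Trim34a (-1.04) and Trim36 (-1.57) at 10 ng/ml, and Trim6 (-1.25), Trim16 (1.25) and Trim45 (1.14) with FN. At 10 ng/ml 9 calls remained without KO LPS 10 ng/ml replicate 3 and 2, both among the lower genes, when those 6 libraries were fitted alone. The calls with FN that ended without at least 1 library were those of Trim8, Trim13, Trim23, Trim59 and Trim62, at adjusted p values of 0.053 to 0.20.

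The difference between the responses themselves was tested as an interaction, that is the KO log2 change less the WT one. For FN it was negative for 12 members and positive for 8 (11.3% and 11.8% of all genes), for LPS 0.1 ng/ml negative for 5 and positive for 0 (2.11% and 0.188%, together 2.29%), and for LPS 10 ng/ml negative for 5 and positive for 2 (3.32% and 1.96%). Under library totals the split was 12 negative and 17 positive for FN (808 and 4999 of all 13294 tested genes). For LPS 10 ng/ml it was 3 and 4 (265 and 927). With FN the interaction of Trim25 was -3.91 ± 0.36, adjusted p = 8.8e-07, of Trim21 -3.59 ± 0.39, adjusted p = 3.7e-06, of Trim26 -2.55 ± 0.23, adjusted p = 8.5e-07 and of Trim65 2.31 ± 0.35, adjusted p = 8.8e-05. At LPS 0.1 ng/ml the 5 were Trim14, Trim21, Trim25, Trim26 and Trim56, between -2.44 for Trim21 and -1.16 for Trim26. The Trim14 call there (-1.56 ± 0.34, adjusted p = 0.018) ended without KO LPS 0.1 ng/ml replicate 1 (0.051), KO untreated replicate 2 (0.059) or WT untreated replicate 1 (0.058), and also with library totals (0.074).

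At LPS 10 ng/ml the interaction was called for Trim14 (-1.47 ± 0.34), Trim25 (-1.49 ± 0.35), Trim26 (-1.30 ± 0.23), Trim27 (0.71 ± 0.19), Trim30a (-1.53 ± 0.43), Trim30b (-3.90 ± 0.97) and Trim66 (2.26 ± 0.62). Those of Trim14, Trim25 and Trim26 remained called without any 1 library, but that of Trim14 ended with library totals (0.063) or without the libraries rich in Rn45s (0.064) and that of Trim25 with the compared groups alone (0.087). The other 4 ended without at least 1 library, at adjusted p values of 0.053 to 0.13. Trim21, Trim36, Trim13, Trim56 and Trim65 were not called, with intervals of -1.86 to -0.26, -2.73 to 1.10, -1.12 to 1.52, -0.69 to 0.32 and -0.77 to 0.75. Left out one at a time, 6 libraries each brought the 7 calls down to 3 or 4, namely KO LPS 10 ng/ml replicate 3, KO untreated replicates 2 and 3, WT LPS 10 ng/ml replicate 3 and WT untreated replicates 1 and 2. With the replicate block nested in genotype the interaction was called for 32 members with FN (49.3% of all genes), 14 at LPS 0.1 ng/ml (13.4%) and 17 at LPS 10 ng/ml (21.7%). Among those gained at 10 ng/ml was Trim21 (-1.11, adjusted p = 0.023).

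**Figure D4:**
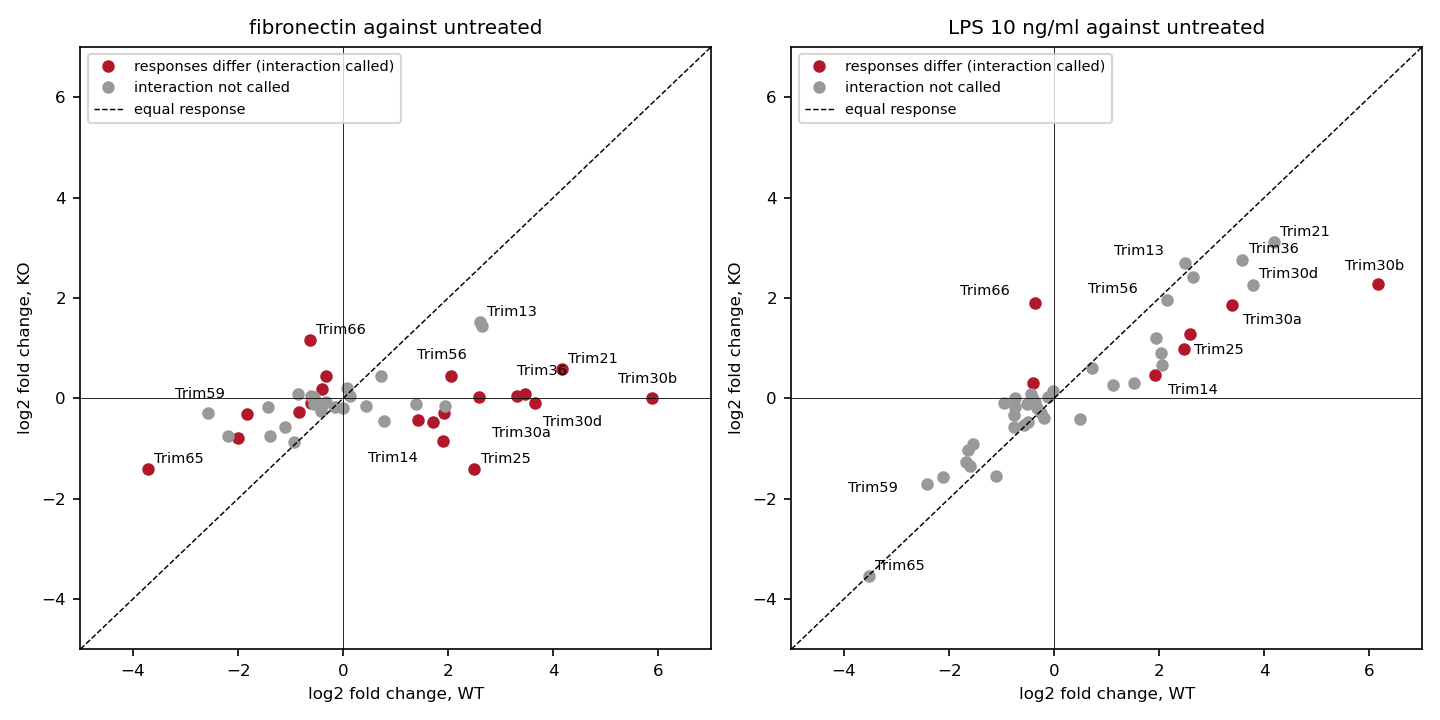
Response of each TRIM gene in KO cells (y axis) against that in WT cells (x axis), as log2 fold changes against untreated cells, for FN (left) and LPS 10 ng/ml (right); red points have a called interaction and the dashed line marks equal responses. With FN 20 points are red, and Trim25 lies at 2.50 in WT and -1.41 in KO cells; with LPS 10 ng/ml 7 are red and Trim65 lies on the line.

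FN and LPS 10 ng/ml gave TRIM profiles that differed in KO cells and were not told apart in WT cells. In WT cells 0 members were called between FN and LPS 10 ng/ml, as were 0% of all genes, and 0 members reached an unadjusted p under 0.05, with 105 of all genes. DESeq2 and limma also called 0 members. For Trim25 the difference of WT FN from WT LPS 10 ng/ml was 0.03 with an interval of -0.48 to 0.54, for Trim26 -0.01 (-0.34 to 0.33), and for Trim30b -0.29 (-1.54 to 0.96). In KO cells 3 members were higher and 11 lower with FN than with LPS 10 ng/ml (7.55% and 9.43% of all genes). Under library totals the split was 12 and 9 (3283 and 707 of all 13294 tested genes). The lower ones included Trim36 (-2.67 ± 0.68), Trim21 (-2.54 ± 0.28), Trim25 (-2.39 ± 0.26) and Trim30d (-2.37 ± 0.41), and the higher ones were Trim28 (0.36 ± 0.09), Trim47 (0.69 ± 0.22) and Trim65 (2.13 ± 0.26). The count was 9 without KO LPS 10 ng/ml replicate 1, 8 when those 6 libraries were fitted alone, and 25 with the replicate block nested in genotype (44.8% of all genes). The Trim36 call ended without KO FN replicate 3 (0.051) or KO LPS 10 ng/ml replicate 1 (0.052), and also with the compared groups alone (0.06) and that of Trim47 without KO FN replicate 3 (0.19), KO LPS 10 ng/ml replicate 1 (0.096) or KO LPS 10 ng/ml replicate 2 (0.15), and also with the compared groups alone (0.28).

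Trim34b and Trim7 followed the replicate number of the library. Trim34b, a SPRY gene beside Trim12a, had 4.36 to 17.1 CPM in the 8 libraries of replicate number 1, in KO and WT cells alike, and 0 to 0.183 CPM in the other 16. Among number 1 libraries it stood in KO cells at 4.40 CPM with FN, and at 4.58, 5.30 and 11.2 CPM across the LPS series of 0, 0.1 and 10 ng/ml. In WT cells it stood at 17.1 CPM with FN and at 4.36, 14.9 and 17.1 CPM across that series. Trim7, a SPRY ligase named for its partner glycogenin, had 6.93 to 8.97 CPM in number 1 libraries and 1.84 to 3.37 CPM in the other 16. No other member had number 1 libraries that stayed clear of all others. The share of all tested genes with such a separation was not computed. Libraries of the same number deviated together from their group means in both genotypes, with correlations of 0.642 to 0.967 within a genotype and of 0.209 to 0.878 between KO and WT cells of 1 treatment. No label says what a number shares. With the replicate block nested in genotype Trim34b was called with FN (1.87, adjusted p = 0.0002), LPS 0.1 ng/ml (1.68, adjusted p = 0.0014) and LPS 10 ng/ml (1.86, adjusted p = 0.00024) in WT cells and with LPS 10 ng/ml in KO cells (1.07, adjusted p = 0.014), values that rest on the number 1 libraries.

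**Figure D5:**
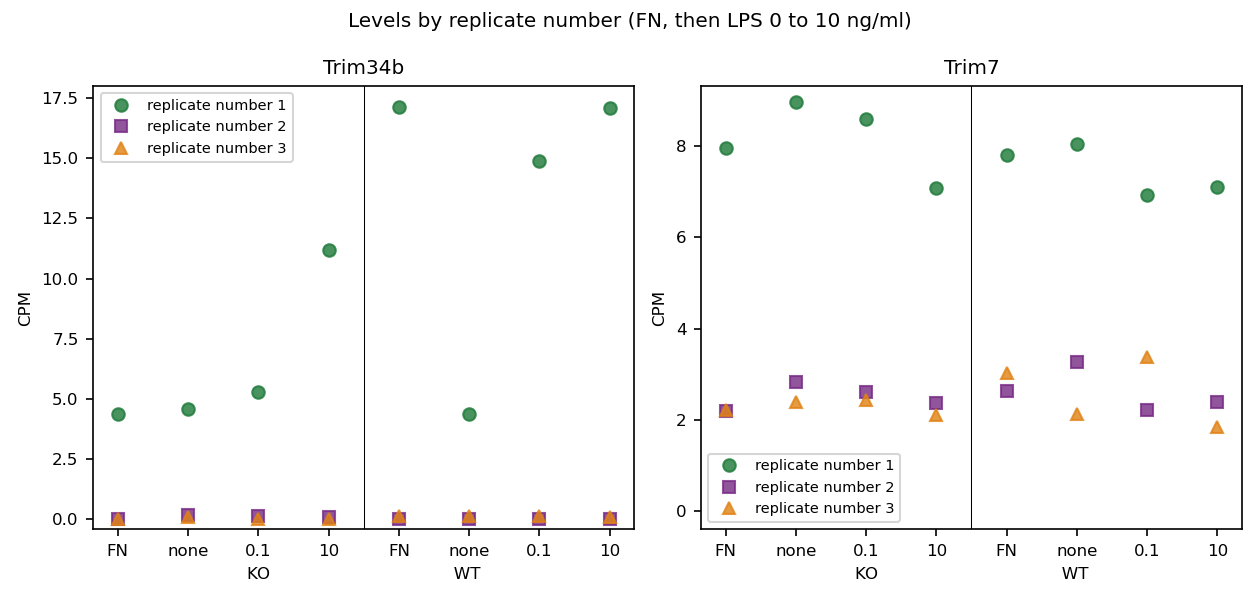
Level of Trim34b and Trim7 (CPM) in every library, KO groups left and WT groups right, each as FN followed by LPS at 0 (none), 0.1 and 10 ng/ml, with the replicate number as colour and shape. All 8 number 1 libraries lie above the other 16 for both genes, at 4.36 to 17.1 CPM for Trim34b and 6.93 to 8.97 CPM for Trim7.

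Another set was highest in KO libraries of 1 replicate number. Trim9 and Trim67, COS ligases of neurons, Trim46, which organizes the axon initial segment, and Trim2, an NHL ligase of axons, were highest among KO libraries in replicate 2 of each treatment. Trim9 had 2.44 to 3.70 CPM in the 4 KO libraries of number 2 and 0.111 to 0.455 CPM in the other 8 KO libraries. The neuron markers, with none of 7 at 0 across a group, summed to 29.99 to 37.9 CPM in those 4 libraries and to 1.36 to 4.92 CPM in the other 8. In WT cells they summed to 4.85 to 7.10 CPM in number 1 libraries and 10.5 to 16.8 CPM in the other 8, where Trim9 had 1.16 to 3.94 CPM against 0.126 to 0.578 CPM in number 1. The astrocyte sum was also highest in the 4 KO libraries of number 2. It was 20.8 to 26.1 CPM there and 11.5 to 17.1 CPM in the other 8. The oligodendrocyte lineage sum was not, at 138 to 153 CPM against 120 to 183 CPM. Whether neuronal or other non-microglial RNA gave these levels was not tested. None of the 4 was called in any of the 17 comparisons. With the replicate block nested in genotype Trim9 (0.76, adjusted p = 0.017) and Trim2 (-0.59, adjusted p = 0.044) were called with FN in WT cells.

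The members called in none of the 17 comparisons were Trim2, Trim3, Trim7, Trim9, Trim11, Trim17, Trim34b, Trim44, Trim46 and Trim67. Trim3, an NHL ligase of the endosome and cytoskeleton, had 29.6 to 36.5 CPM in KO and 27.3 to 36.9 CPM in WT cells with FN, and its WT change with FN had an interval of -0.19 to 0.44. Trim11 and Trim44, which lacks a RING domain, had changes between -0.39 and 0.12 (Trim11) and between -0.33 and 0.01 (Trim44) with the stimuli. The replicate block nested in genotype called Trim44 with FN in WT cells (-0.32, adjusted p = 0.00015) and Trim11 at LPS 10 ng/ml in KO cells (-0.39, adjusted p = 0.0075). Trim17, a SPRY ligase of neuronal apoptosis, had 10 to 35 counts per group.

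Related genes from lists outside the rule were read beside the members. Pml, or TRIM19, which builds nuclear bodies, had 26.7, 26.7 and 17.9 CPM in KO and 314, 277 and 459 CPM in WT cells with FN, against 37.4, 36.7 and 24.02 CPM in untreated KO and 32.5, 34.1 and 37.5 CPM in untreated WT cells. The higher LPS dose gave 118, 98.8 and 37.8 CPM in KO and 289, 306 and 436 CPM in WT cells. It rose at that dose in KO (1.38 ± 0.33, adjusted p = 0.0024) and WT cells (3.31 ± 0.35, adjusted p = 3.1e-07) and with FN in WT cells (3.33 ± 0.36, adjusted p = 2.8e-07), while its FN value in KO cells was -0.46 ± 0.33, adjusted p = 0.43. Mefv, or TRIM20, the pyrin of an inflammasome, took another course. It had 1.78, 1.098 and 1.38 CPM in KO and 0.836, 1.82 and 2.09 CPM in WT cells with FN, which overlap, against 0.0964, 0.0733 and 0 CPM in untreated KO and 0.104, 0 and 0 CPM in untreated WT cells. It was called as higher with FN in both genotypes, and no fold is given against untreated cells with so few counts. Mid1 and Mid2, the other TRIM genes under another name, were called with no stimulus.

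Of 19 sensors and adaptors that TRIM ligases act on, 6 rose and 1 fell with FN in KO cells (9.23% and 7.17% of all tested genes). In WT cells 15 rose and 1 fell with FN (23.7% and 26.5%). At LPS 10 ng/ml 15 rose and 1 fell in KO cells (21.2% and 21.6%). At that dose 13 rose and 1 fell in WT cells (23.3% and 26.1%). Ifih1, which encodes MDA5, the target of Trim65, had 80.6, 75.8 and 52.6 CPM in KO and 3728, 2971 and 3082 CPM in WT cells with FN, against 36.9, 44.6 and 46.4 CPM in untreated KO and 36.7, 44.1 and 45.9 CPM in untreated WT cells. Ddx58, which encodes RIG-I, the target of Trim25, had 31.97, 51.1 and 25.9 CPM in KO and 663, 537 and 895 CPM in WT cells with FN, against 24.4, 47.2 and 33.8 CPM in untreated KO and 22.9, 34.6 and 45.04 CPM in untreated WT cells. Both rose in WT cells with FN, by 6.27 ± 0.39 and 4.35 ± 0.43, and were not called with FN in KO cells (0.71 ± 0.31, adjusted p = 0.15 for Ifih1 and 0.05 ± 0.37, adjusted p = 1 for Ddx58). The member that fell is Mavs, the adaptor of both sensors, with 30.4, 32.5 and 35.4 CPM in KO and 15.1, 15.7 and 17.5 CPM in WT cells with FN, against 49.6, 55.3 and 48.03 CPM in untreated KO and 48.8, 45.1 and 52.8 CPM in untreated WT cells. Its falls with FN were -0.64 ± 0.13 in KO and -1.60 ± 0.14 in WT cells. Of the kinases and adaptors, Ikbke rose with FN in both genotypes, by 3.33 ± 0.35 in KO and 3.51 ± 0.35 in WT cells.

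Among 30 tested ubiquitin E2 enzymes, 4 rose with FN in KO cells (9.23% of all tested genes). In WT cells 16 rose and 1 fell with FN (23.7% and 26.5%). With LPS 10 ng/ml 14 rose in KO cells (21.2%) and 15 rose and 1 fell in WT cells (23.3% and 26.1%). Ube2l6, the E2 of the ubiquitin-like protein ISG15, had 43.8, 47.1 and 41.2 CPM in KO and 172, 135 and 243 CPM in WT cells with FN, against 36.1, 58.8 and 46.1 CPM in untreated KO and 35.3, 42.03 and 46.8 CPM in untreated WT cells. It rose in WT cells (2.15 ± 0.25, adjusted p = 7.7e-07) and was not called in KO cells (-0.10 ± 0.24, adjusted p = 0.94). Of 15 interferon signalling and reporter genes, 4 rose with FN in KO cells (9.23% of all tested genes) and 15 in WT cells (23.7%). With LPS 0.1 ng/ml 0 rose in KO (0.722%) and 13 in WT cells (9.94%). With LPS 10 ng/ml 15 rose in each genotype (21.2% in KO and 23.3% in WT cells). Ifnb1, which encodes interferon beta, had 0.837, 0.448 and 0.3001 CPM in KO and 199, 153 and 166 CPM in WT cells with FN, and along the LPS series of 0, 0.1 and 10 ng/ml 0.147 to 0.333, 0 to 0.246 and 4.13 to 26.5 CPM in KO cells and 0 to 0.0987, 2.01 to 9.58 and 133 to 214 CPM in WT cells.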

How the data were processed

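RNA was sequenced from 24 libraries (TruSeq RNA kit, HiSeq2000, per the labels' protocols). Per the submitters' processing notes the build was mm10, and the tools named there include HTSeq 0.5.4, Bowtie2 2.1.0 and DESeq. The annotation and any use of strand in the counting are not given in the sources used here. The authors deposited raw read counts for 18919 genes, used for all tests. They also deposited a normalized signal for 12889 genes, in which each library's counts had been scaled by a single factor (largest departure 0.144), and which chose the members.

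Genes with too few counts were removed (edgeR filterByExpr, minimum count 10, minimum total 15), which left 13294. One model over 8 groups was fitted with edgeR 4.0.16 (R 4.3.3; TMM factors, robust quasi-likelihood, no block, 16 residual degrees of freedom), with 17 contrasts and Benjamini-Hochberg adjustment within each. The standard error is the log2 fold change over the root of F. Alternatives were RLE scaling, library totals, no filter, at least 5 CPM in 3 libraries, compared groups alone, replicate blocks, leaving out each library, leaving out the libraries rich in Rn45s, DESeq2 1.42.0, and limma 3.58.1 on the log2 of the normalized signal plus 1. The test script was tested on simulated data. Totals of 14939019 to 22143774 counts per library limit the precision of low genes.

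Same-numbered libraries deviated together over 9582 genes with at least 5 CPM, at correlations of 0.642 to 0.967 in 36 pairs of 1 genotype and 0.209 to 0.878 in 12 KO and WT pairs, against -0.785 to 0.391 in 72 pairs of different numbers. The pairing comes from the data and not from the labels. Blocked values are given where they change a call against untreated cells or between KO and WT cells, and as counts of calls for the other comparisons.

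Members and gene lists were chosen with earlier results of these data known. Per-library values are given for the called members with the largest changes in each comparison and 1 CPM or more in the group with more of it, and for the 3 highest untreated levels. Other members were named after their values were seen.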

Additional observations from a re-analysis of the deposited data

Results flagged for a closer look

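The response of these members differed between KO and WT cells by the interaction test (edgeR, adjusted p under 0.05), given as the log2 change in KO minus that in WT cells. With FN the values were -5.86 for Trim30b, -3.91 for Trim25, -3.76 for Trim30d, -3.59 for Trim21, -3.37 for Trim36, -3.26 for Trim30a, -2.75 for Trim14, -2.55 for Trim26, -2.22 for Trim12a, -2.18 for Trim34a, -1.86 for Trim12c and -1.60 for Trim56. On the positive side with FN they were 2.31 for Trim65, 1.79 for Trim66, 1.53 for Trim24, 1.21 for Trim68, 0.77 for Trim27, 0.58 for Trim32, 0.58 for Trim33 and 0.50 for Trim41. Those of Trim33, Trim41 and Trim66 ended without at least 1 library, at adjusted p values of 0.051 to 0.12.

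At LPS 0.1 ng/ml the values were -2.44 for Trim21, -1.96 for Trim25, -1.56 for Trim14, -1.48 for Trim56 and -1.16 for Trim26. At LPS 10 ng/ml they were -3.90 for Trim30b, -1.53 for Trim30a, -1.49 for Trim25, -1.47 for Trim14, -1.30 for Trim26, 0.71 for Trim27 and 2.26 for Trim66.

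Of 61 rows named Trim and a number in the count table, 17 are not in the normalized table and so are no members. Among them Trim15 had 39 counts in KO and 40 counts in WT cells at LPS 10 ng/ml, against 15 counts in untreated KO and 7 counts in untreated WT cells, each summed over 3 libraries. With FN it had 7 counts in KO and 29 counts in WT cells. These counts were not tested.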

How the results depend on the processing

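Of 3974 values of called members under the alternatives, 3635 kept their direction and call, 336 kept their direction and lost the call, and 3 reversed. Of 241 calls, 154 held in every alternative run that gave the member a value. The filter of at least 5 CPM in 3 libraries gave a value for 217 of the 241. The replicate block nested in genotype gave 1 for 192. All 3 reversals are Trim35 scaled by library totals, at -0.079 with LPS 10 ng/ml and -0.066 with FN against untreated WT cells, and at -0.074 for LPS 10 against 0.1 ng/ml in WT cells. The replicate block nested in genotype called 24 members for LPS 0.1 ng/ml in WT cells (41.5% of all genes). In KO cells it called 16 for FN (44%), 30 for LPS 10 against 0.1 ng/ml (62.8%) and 25 for FN against LPS 10 ng/ml (44.8%). For the interaction it called 32 with FN (49.3%), 14 with LPS 0.1 ng/ml (13.4%) and 17 with LPS 10 ng/ml (21.7%). It ended no call, but it was not run for KO against WT cells, since each block lies within 1 genotype. Between KO and WT cells the block over all libraries called 13 members at LPS 0.1 ng/ml (18.9% of all genes). It called 18 at LPS 10 ng/ml (25.1%) and 29 with FN (50.1%), and it ended no call either.

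Fitted on the compared groups alone, the calls were 4 for FN in KO cells, 2 for KO against WT cells at LPS 10 ng/ml, 3 for that interaction, 15 for LPS 10 against 0.1 ng/ml in WT cells and 8 for FN against LPS 10 ng/ml in KO cells. Without the libraries rich in Rn45s they were 9 for the LPS 0.1 ng/ml interaction, 3 for the LPS 10 ng/ml interaction and 8 for LPS 10 against 0.1 ng/ml in WT cells. DESeq2 gave 9 for the LPS 0.1 ng/ml interaction, and no filter gave 4 for the LPS 10 ng/ml interaction. Leaving out 1 library gave 3 to 8 calls for FN in KO cells, 9 to 15 for KO against WT cells at LPS 10 ng/ml, 3 to 8 for the LPS 10 ng/ml interaction, 14 to 21 for LPS 10 against 0.1 ng/ml in WT cells, and 9 to 15 for FN against LPS 10 ng/ml in KO cells. The shares of all genes called in the settings of this paragraph were not computed, so these counts stand without a background. The causes were not tested.

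With 3 preparations a group, small changes and genes under 1 CPM in untreated cells, such as Trim30b, Trim43c and Trim66, are poorly resolved. How reads of the paralogs Trim30a, Trim30b and Trim30d, Trim12a and Trim12c, and Trim34a and Trim34b were divided is not given in the sources used here.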
